A study of Chlamydomonas reinhardtii with 15 samples.

Results

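The transcripts of 4 peripheral subunits of photosystem I, PSAH, PSAO, PSAL and PSAK, were followed in the green alga Chlamydomonas reinhardtii during sulfur starvation. Members were all probes of the transcript models that the tables given with the study name with 1 of these symbols. This rule gave 15 probes of 5 models, 3 probes per model, out of 43687 probes of 14557 models on the array. PSAH was represented by model 182959, PSAO by model 193847, PSAL by model 205940 and PSAK by models 144056 and 192478. All 15 probes met the requirement for testing, which was a signal well above background in green or red on 3 or more arrays, as did 32076 probes of the whole array.

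Each of the 15 Agilent arrays compared 2 colours, with RNA of a culture at 0 h labelled in green (Cy3) and RNA of the same strain after a period without sulfur labelled in red (Cy5). The wild types cc3491, cc125 and 4A+ were each measured at 24, 48, 72 and 96 h, and npq4 was measured at 24, 48 and 96 h. The strain npq4 is an insertional mutant that lacks LHCSR3, a stress-induced chlorophyll protein needed for the dissipation of excess light energy, and 4A+ served as its control. Cultures were grown in constant light in acetate-containing TAP medium, and for starvation the cells were washed and resuspended in TAP medium without sulfur. RNA of 3 biological samples was pooled before labelling, and there was 1 array per strain and time point. The spread over the arrays of a strain is therefore a spread over time points. Unless a fit to fewer arrays is named, p-values measure that spread pooled over all 15 arrays, and not the spread between cultures. The 0 h RNA of a strain was shared by all its arrays, and a dye exchange is not described.

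Photosystem I uses light to move electrons from plastocyanin or cytochrome c6 to ferredoxin. Its reaction centre is surrounded by small nucleus-encoded subunits that add no electron carrier of their own but hold chlorophyll and attach the antenna. PSAH, PSAL and PSAO lie together on the side where mobile light-harvesting complex II docks during state transitions. PSAK lies beside the belt of LHCA antenna proteins. Photosynthetic activity is known to decline in Chlamydomonas cells that are deprived of sulfur.

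The names of the members did not rest on equally firm ground. PSAH and PSAO were named in a list in which the model number matched the gene identifier in all 559 rows named by a model number. PSAL and both PSAK models were named in a second list, in which 79 of 263 rows, or 30%, carried the number of a different model from that in their identifier. Of the 45 models with a symbol in both lists, 18 had different symbols. A summary table of the study repeats the names of models 205940 and 192478, while the RefSeq annotation used here gives none of the 3. Some of these names may belong to other models, and a role stated for PSAL or PSAK holds only where the list is right. In the RefSeq annotation of assembly version 5.5 the 5 models correspond to loci CHLRE_07g330250v5 (PSAH), CHLRE_07g334550v5 (PSAO), CHLRE_09g401022v5 (model 205940, listed as PSAL), CHLRE_03g165100v5 (model 144056, listed as PSAK) and CHLRE_17g724300v5 (model 192478, listed as PSAK). The study had also listed PSAH and PSAO for their change on these arrays, so their response to starvation is not independent evidence.

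The PSAH probes are shown in part because the means of the 3 lay within 0.34 log2 units of each other in every strain, and the sequences tell how far the probes are independent of one another. Probe 1 has 60 bases with 45.0% G or C and was designed for this array, and its first 30 bases are given here. Probe 2 has 51 bases with 52.9% G or C and came from a first-generation array, and its last 30 bases are given. The capitals mark 12 bases that end probe 2 and begin probe 1, so that these probes read adjoining and partly overlapping stretches of the transcript. Probe 3 has 60 bases with 50% G or C and has no such overlap with the other probes.
PSAH probe 1, 5′ part: AGTGTGTATCATacagagcagaaaatcaat
PSAH probe 2, 3′ part: gcaaggaatagggtgtagAGTGTGTATCAT

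The knocked-out gene and the arrays were examined before the members. All 3 LHCSR3 probes were at background in both channels on the 3 npq4 arrays, whereas probe 1 was well above background in both channels on all 4 arrays of each other strain. In 4A+, however, probe 3 was at background in both channels throughout, and probe 2 was above it on 3 of the 4 arrays in green and on 3 in red. Well above background in green were 16699 to 29100 probes per array, and in red 8729 to 12424 for 4A+ against 14356 to 26604 for the remaining strains. The 96 h array of npq4 had the fewest probes above background in green, and the 24 h array of npq4 had 1088 spots with an outlier mark against 46 to 126 elsewhere. Over all tested probes, the Pearson correlation between strain means of the log2 ratio was 0.54 to 0.69 among cc3491, 4A+ and npq4. The means labelled cc125 were negatively correlated with them, at -0.49 for cc3491, -0.34 for 4A+ and -0.41 for npq4. Probes are not independent replicates, so these values are descriptions. The labels place 0 h in green on these arrays as on all others, and the direction on them is unsettled. Ratios labelled cc125 are given as labelled, and each would have the opposite sign if the channels were exchanged. Each strain was on a slide of its own, so slide, scan and strain cannot be told apart.

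The mean over probes of all 5 genes was lower in starved than in 0 h cells on every one of the 11 arrays of cc3491, 4A+ and npq4. Of 13389 models measured on these arrays, 7.32% were lower on all 11. On the npq4 array of 24 h the PSAH mean was below 0 only through its probe from the first-generation array. PSAH and PSAO had the largest mean changes in cc3491, with 8.99-fold and 8.82-fold lower levels, and in 4A+ PSAO was 8.13-fold and PSAH 6.11-fold lower. The PSAO value is a mean over 3 probes, of which 1 was not above background in red in 4A+. The model listed as PSAL and the models listed as PSAK ranged from 1.78-fold to 5.71-fold lower in these strains, and the lowest of these values, that of model 192478 in npq4, includes a probe with almost no signal. All 5 were higher on every array labelled cc125, as were 24.3% of all models, and would be lower with the sign turned.

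**Figure D1:**
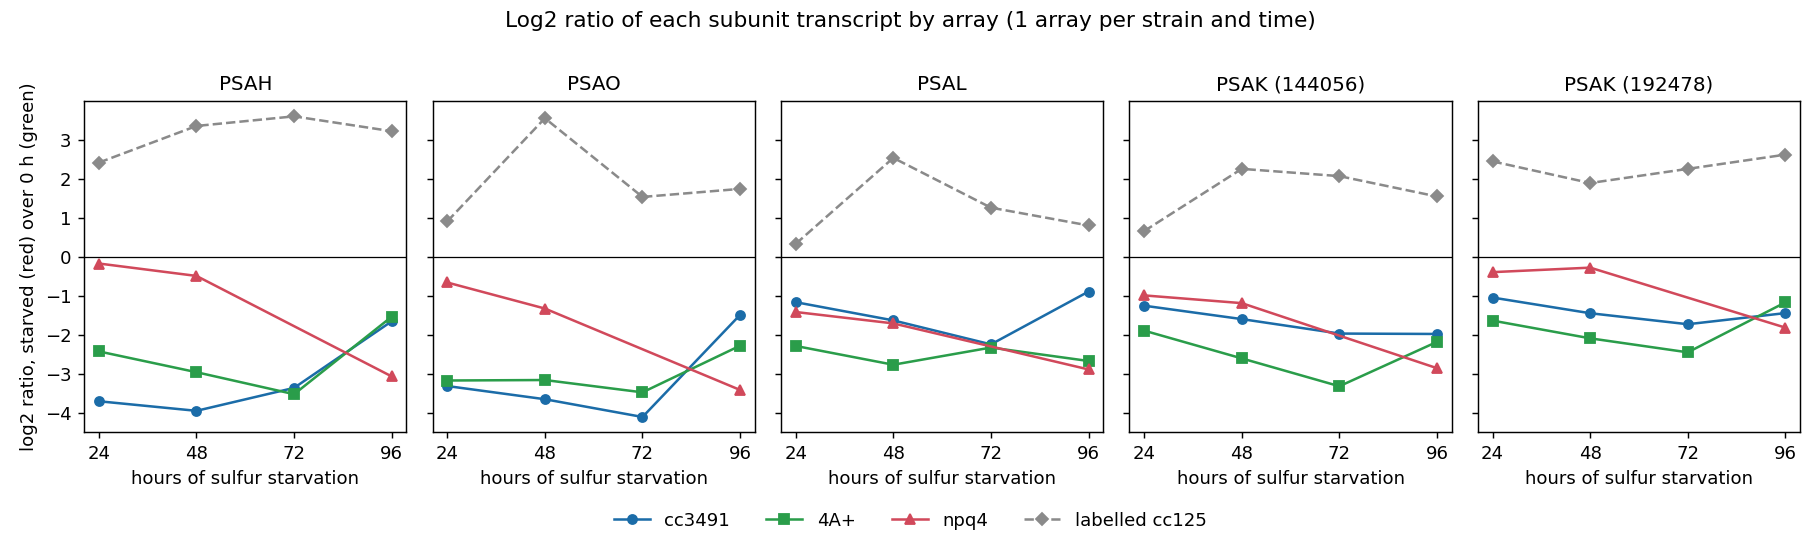
Log2 ratio of starved over 0 h RNA (y axis) against hours without sulfur (x axis) for PSAH, PSAO, PSAL and both PSAK models, with 1 point per array and 1 line per strain. All points of cc3491, 4A+ and npq4 lie below 0 and all points labelled cc125 above 0, and the npq4 points of PSAH go from -0.17 at 24 h to -3.07 at 96 h.

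PSAH is a subunit on the docking side for light-harvesting complex II, and plants without it are impaired in state transitions. In cc3491 its log2 ratio was -3.71 at 24 h, -3.95 at 48 h, -3.36 at 72 h and -1.65 at 96 h, so the array of 96 h was the least changed. In 4A+ it was -2.43, -2.96, -3.52 and -1.54 at the same times, again with the smallest change at 96 h. In npq4 it was -0.17 at 24 h, -0.49 at 48 h and -3.07 at 96 h, which means that the first 2 time points were close to the 0 h level while the last lay within the range of both wild types. The npq4 arrays of 24 and 48 h lay above all 8 arrays of cc3491 and 4A+. These 2 arrays were picked out after the data had been seen, and the share of all models with the same order was not counted. The arrays labelled cc125 had log2 ratios of 2.42, 3.36, 3.60 and 3.22, or the same sizes below 0 with the sign turned.

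For PSAH the mean log2 ratio of cc3491 was -3.17 ± 1.04 (SD, n = 4) and that of 4A+ -2.61 ± 0.85 (SD, n = 4). It was -1.24 ± 1.59 (SD, n = 3) for npq4 and 3.15 ± 0.51 (SD, n = 4) for cc125 as labelled. In cc3491 0.0520% of the 13465 tested models had a lower mean ratio than PSAH, against 0.602% in 4A+ and 2.76% in npq4. The study had listed PSAH for its change on these arrays, so these ranks are not independent evidence. With limma over all models, the Holm adjusted p was 0.194 in cc3491, 0.210 for the arrays labelled cc125 and 1 in 4A+ and npq4. The study used a Holm adjusted p under 0.05 with its own software, left out probes of the first-generation array and listed PSAH as changed. In limma as used here, with probe 2 in the mean, PSAH did not pass that cut-off in any strain. It did pass under a stricter filter. With only the probes above background in both channels on all 15 arrays, which left 4388 models, the PSAH means were the same and the Holm adjusted p in limma was 0.0155 in cc3491 and 0.0161 for cc125 as labelled. Without the 96 h array the npq4 mean was -0.33. With Benjamini-Hochberg adjustment, which controls the share of false calls instead of the chance of any, limma gave adjusted p values of 0.000187 for cc3491, 0.00132 for 4A+, 0.140 for npq4 and 0.000262 for cc125 as labelled. The strain means of the 3 PSAH probes were close, in cc3491 between -3.21 and -3.13. The probes parted on the 24 h array of npq4, where probes 1 and 3 were slightly above 0, at 0.10 and 0.23, and probe 2 was at -0.84. On that array the gene mean lies below 0 through probe 2 alone. The study left probes of the first-generation array, such as probe 2, out of its analysis. It reported lower log2 ratios from them in changed genes and possible cross-hybridization of many.

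PSAO, a small subunit beside PSAL and PSAH, was also lower on all 11 arrays. Its log2 ratio was -3.32, -3.65, -4.11 and -1.49 at 24, 48, 72 and 96 h in cc3491, and -3.17, -3.16, -3.48 and -2.28 in 4A+. As for PSAH, 96 h was the least changed time point in both wild types. In npq4 it was -0.66 at 24 h, -1.33 at 48 h and -3.42 at 96 h. The npq4 arrays of 24 and 48 h were again above every array of cc3491 and 4A+, an order not counted over all models. The npq4 array of 96 h was within the range of these wild types. The arrays labelled cc125 gave 0.91, 3.56, 1.54 and 1.74, with the highest value at 48 h.

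The PSAO mean of cc3491 was -3.14 ± 1.15 (SD, n = 4) and that of 4A+ -3.02 ± 0.52 (SD, n = 4). For npq4 it was -1.80 ± 1.44 (SD, n = 3), or -0.99 without the 96 h array, and for cc125 as labelled 1.94 ± 1.14 (SD, n = 4). In limma the Holm adjusted p was 0.397 in cc3491, 0.597 in 4A+ and 1 for both other strains, and the Benjamini-Hochberg adjusted p was 0.000336 (cc3491), 0.000705 (4A+), 0.0437 (npq4) and 0.00918 (cc125). The PSAO mean hides a difference between its probes. In 4A+ probes 1 and 2 both had a mean log2 ratio of -4.19, while probe 3 had -0.69. In red, probe 3 was well above background on none of the 4 arrays of 4A+, so its change there is a bound of at least 1.61-fold. With only the probes above background in both channels on all 15 arrays, the PSAO mean in 4A+ was -4.19, with a Holm adjusted p of 0.0453 in limma over 4388 models. The bound is the mean green level over the mean, per array, of the higher of the probe's red level and the lowest red level of a probe well above background. In cc3491 probe 3 was above background in red on all 4 arrays. Its log2 ratio there was -1.78, -1.97, -2.42 and -1.53, and it was called with a Holm adjusted p of 0.00122 in limma, whose error pools the spread of all 15 arrays. In a fit to the arrays of cc3491 alone, neither this nor any other member probe was called. Probe 1 was saturated in green on 1 array of cc3491, which limits the largest ratio it could show.

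The model listed as PSAL, the subunit that joins monomers of photosystem I into trimers in cyanobacteria and forms the docking side in plants and algae, had its steadiest response in 4A+. Its log2 ratio was -2.29, -2.77, -2.33 and -2.67 in 4A+, against -1.16, -1.63, -2.25 and -0.89 in cc3491. Each array of 4A+ lay below each array of cc3491, with -2.29 against -2.25 at the closest. Arrays of these strains did not overlap, in either direction, for 26.2% of all models. For probe 2 and for probe 3, each taken by itself, they overlapped. In npq4 the log2 ratio of the model was -1.42 at 24 h, -1.71 at 48 h and -2.89 at 96 h, overlapping both wild types. The arrays labelled cc125 gave 0.33, 2.54, 1.26 and 0.81, again with the highest value at 48 h, and probe 3 alone was below 0 on 2 of these arrays, at -1.29 and -0.34.

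The PSAL mean of cc3491 was -1.48 ± 0.59 (SD, n = 4) and that of 4A+ -2.51 ± 0.24 (SD, n = 4). For npq4 it was -2.00 ± 0.78 (SD, n = 3), and for cc125 as labelled 1.23 ± 0.95 (SD, n = 4), or 0.80 without the 48 h array. It fell in 4A+, 5.71-fold, with a Holm adjusted p of 0.0402 in limma. The call did not hold without any 1 of the 4 arrays of 4A+, when the Holm adjusted p in limma was 0.294, 0.523, 0.307 and 0.477 without the array of 24, 48, 72 and 96 h. In cc3491 and npq4 the Holm adjusted p was 1 in limma. Probe 2 of this model stood out for its small spread. Its log2 ratio was -1.39, -1.49, -1.68 and -1.07 in cc3491, -1.40, -1.53, -1.82 and -1.38 in 4A+, and -1.33, -1.28 and -2.23 in npq4. It was called lower in all 3 strains, with Holm adjusted p of 0.0123, 0.00482 and 0.0133 in limma, and higher on the arrays labelled cc125 with 0.000695. The npq4 call was lost without the array of 48 or 96 h, without a normexp offset, with normexp fitted on all spots, with the scanner's ratio and with median centring. The 4A+ call was lost without the array of 48 or 72 h and when all spots entered normexp, and no call of this probe held in a fit to a strain's own arrays alone. Probes 1 and 3 changed more in 4A+, to means of -2.88 and -3.13, but were not called.

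The models listed as PSAK, the subunit next to the LHCA belt, had smaller mean changes than PSAH and PSAO in cc3491. For model 144056 the log2 ratio was -1.25, -1.60, -1.97 and -1.98 in cc3491, so the lowest values came at 72 and 96 h. In 4A+ it was -1.89, -2.61, -3.32 and -2.18, and in npq4 -0.99, -1.19 and -2.86. The arrays of the 3 strains overlapped. The arrays labelled cc125 gave 0.66, 2.26, 2.07 and 1.55. Its cc3491 mean was -1.70 ± 0.35 (SD, n = 4) and its 4A+ mean -2.50 ± 0.62 (SD, n = 4), beside -1.68 ± 1.03 (SD, n = 3) for npq4, or -1.09 without its 96 h array, and 1.63 ± 0.72 (SD, n = 4) for cc125 as labelled. The model fell 5.66-fold in 4A+, with a Holm adjusted p of 0.0426 in limma. This call too was lost without any 1 of the 4 arrays of 4A+, at Holm adjusted p of 0.130, 0.487, 0.513 and 0.255 in limma without 24, 48, 72 and 96 h. Of its probes, only probe 3 was called, higher on the arrays labelled cc125 at a mean log2 ratio of 2.76 and a Holm adjusted p of 0.0117 in limma. Probes 1 and 2 reached -0.71 and -0.23 on 1 array labelled cc125.

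For PSAK model 192478 the log2 ratio was -1.04, -1.45, -1.73 and -1.44 in cc3491 and -1.64, -2.09, -2.45 and -1.17 in 4A+. In npq4 it was -0.39 at 24 h, -0.28 at 48 h and -1.82 at 96 h. Both early arrays were above all arrays of the wild types cc3491 and 4A+, an order not counted over all models. The arrays labelled cc125 gave 2.45, 1.89, 2.26 and 2.62. Its cc3491 mean was -1.42 ± 0.28 (SD, n = 4), its 4A+ mean -1.84 ± 0.56 (SD, n = 4) and its npq4 mean -0.83 ± 0.86 (SD, n = 3), with Holm adjusted p of 0.728, 0.0574 and 1 in limma. Without the 96 h array the npq4 mean was -0.33. As labelled, the cc125 mean was 2.31 ± 0.31 (SD, n = 4), called higher with a Holm adjusted p of 0.00488 in limma. That call was lost without the array of 24, 72 or 96 h, at Holm adjusted p of 0.0730, 0.0581 and 0.0806 in limma.

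Probe 1 of model 192478 carried almost no signal, and its ratio lay between -0.24 and 0.20 on all 15 arrays. It was well above background in green on 3 arrays of cc3491 and 2 labelled cc125, in red on 1 array of cc3491, and on none of 4A+ or npq4. The mean over 3 probes therefore understates the change that probes 2 and 3 show. Their mean log2 ratios were -1.89 and -2.23 in cc3491, -2.62 and -2.82 in 4A+, -1.05 and -1.36 in npq4, and 3.31 and 3.59 for cc125 as labelled. Over these 2 probes the 4A+ mean was -2.72, with a Holm adjusted p of 0.00627 in limma when only probes above background in both channels on all 15 arrays were tested. Both were called on the arrays labelled cc125, at Holm adjusted p of 0.0261 and 0.00911 in limma.

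**Figure D2:**
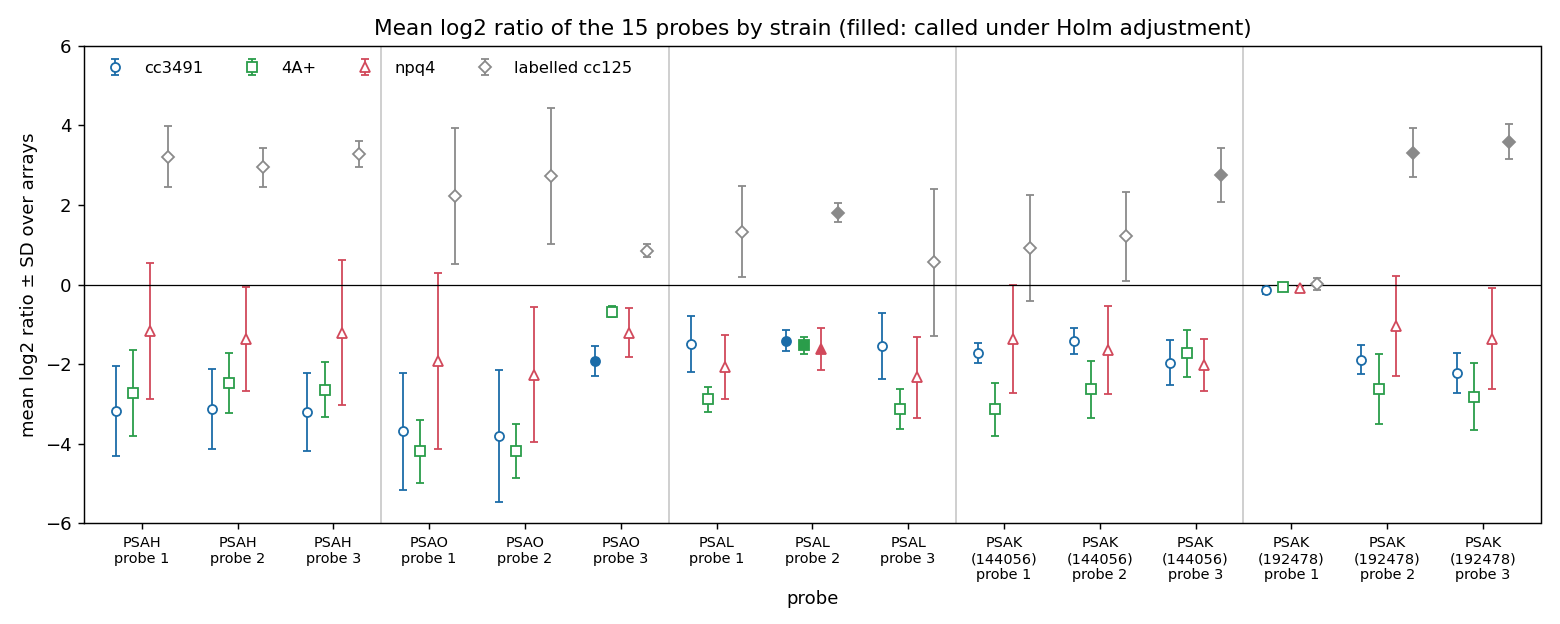
Mean log2 ratio of starved over 0 h RNA (y axis) for each of the 15 probes (x axis) by strain, with bars of 1 SD over the 4 arrays of a wild type or the 3 of npq4, and filled points where the Holm adjusted p was under 0.05 with at least a 2-fold change. Probe 1 of PSAK model 192478 stays near 0 in every strain, and probe 3 of PSAO lies nearer 0 than probes 1 and 2.

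Counted over probes, 2 of 15 were called lower in cc3491, where 2.22% of all tested probes were called lower. In 4A+ 1 of 15 was called lower against 1.9% of all probes, in npq4 1 of 15 against 1.08%, and for cc125 as labelled 4 of 15 were called higher against 2.1%. Leaving out 1 array moved these counts. In 4A+ 0 probes were called without the array of 48 or 72 h, in npq4 0 without that of 48 or 96 h, and in cc3491 1 without that of 24, 48 or 72 h. For cc125 as labelled 1 was called without the array of 24, 72 or 96 h. Counted over genes, 0 of 5 were called in cc3491 and npq4, 2 of 5 were called lower in 4A+ and 1 of 5 higher for cc125 as labelled. The corresponding shares of all 13465 models were 1.89% lower in cc3491, 1.23% lower in npq4, 2.24% lower in 4A+ and 2.17% higher on the arrays labelled cc125. In each strain limma gave an unadjusted p under 0.05 for all 5 genes. Of all models, 21.6% were lower at that level in cc3491, 15.5% in 4A+ and 16.1% in npq4, and 23.2% were higher for cc125 as labelled. With Benjamini-Hochberg adjustment in limma and the same 2-fold limit, 5 of 5 genes were called lower in cc3491, 5 of 5 in 4A+ and 3 of 5 in npq4, against 3.93%, 4.32% and 3.62% of all models. By this rule 5 of 5 were called higher for cc125 as labelled, against 5.31% of all models. The 2 genes without such a call in npq4 were PSAH, at an adjusted p of 0.140, and PSAK model 192478, at 0.0529 in limma. The median of the 5 genes was -1.70 in cc3491, -2.51 in 4A+, -1.68 in npq4 and 1.94 for cc125 as labelled, while the median of all models was between -0.01 and 0.01. In a bulk RNA sample, fewer cells with a transcript and less of it per cell cannot be told apart.

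The levels of the channels were also examined one by one. For the mean of the PSAH probes in cc3491, the log2 level in green was 13.95 ± 0.17 (SD, n = 4) and that in red 10.78 ± 0.92 (SD, n = 4). In 4A+ the green level was 11.41 ± 0.04 (SD, n = 4) and the red level 8.80 ± 0.82 (SD, n = 4). The green 0 h level of PSAH was thus higher in cc3491 than in 4A+ on all arrays, whereas the PSAO green level was 12.13 ± 0.12 (SD, n = 4) and 12.10 ± 0.01 (SD, n = 4) in these strains. For PSAL the order was the opposite of that for PSAH, with 9.95 ± 0.09 (SD, n = 4) in cc3491 and 11.37 ± 0.07 (SD, n = 4) in 4A+. These levels are open to dye bias, the 0 h RNA was 1 pool per strain, and no test was made of them.

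Over the member probes that were well above background in both channels on all arrays of a strain, the median SD over arrays was 0.110 in green and 0.716 in red in cc3491 (14 probes). It was 0.0617 in green and 0.700 in red in 4A+ (13 probes), and 0.0677 and 1.35 in npq4 (13 probes). The labels put a single 0 h sample in green, and in these strains the green level varied less than the red one for all such probes. For cc125 as labelled the median SD was 0.696 in green and 0.123 in red (13 probes), and green varied more for 12 of the 13. PSAH there had a green level of 8.70 ± 0.53 (SD, n = 4) and a red level of 11.85 ± 0.04 (SD, n = 4). There it was thus the channel labelled as starved that hardly varied between time points.

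**Figure D3:**
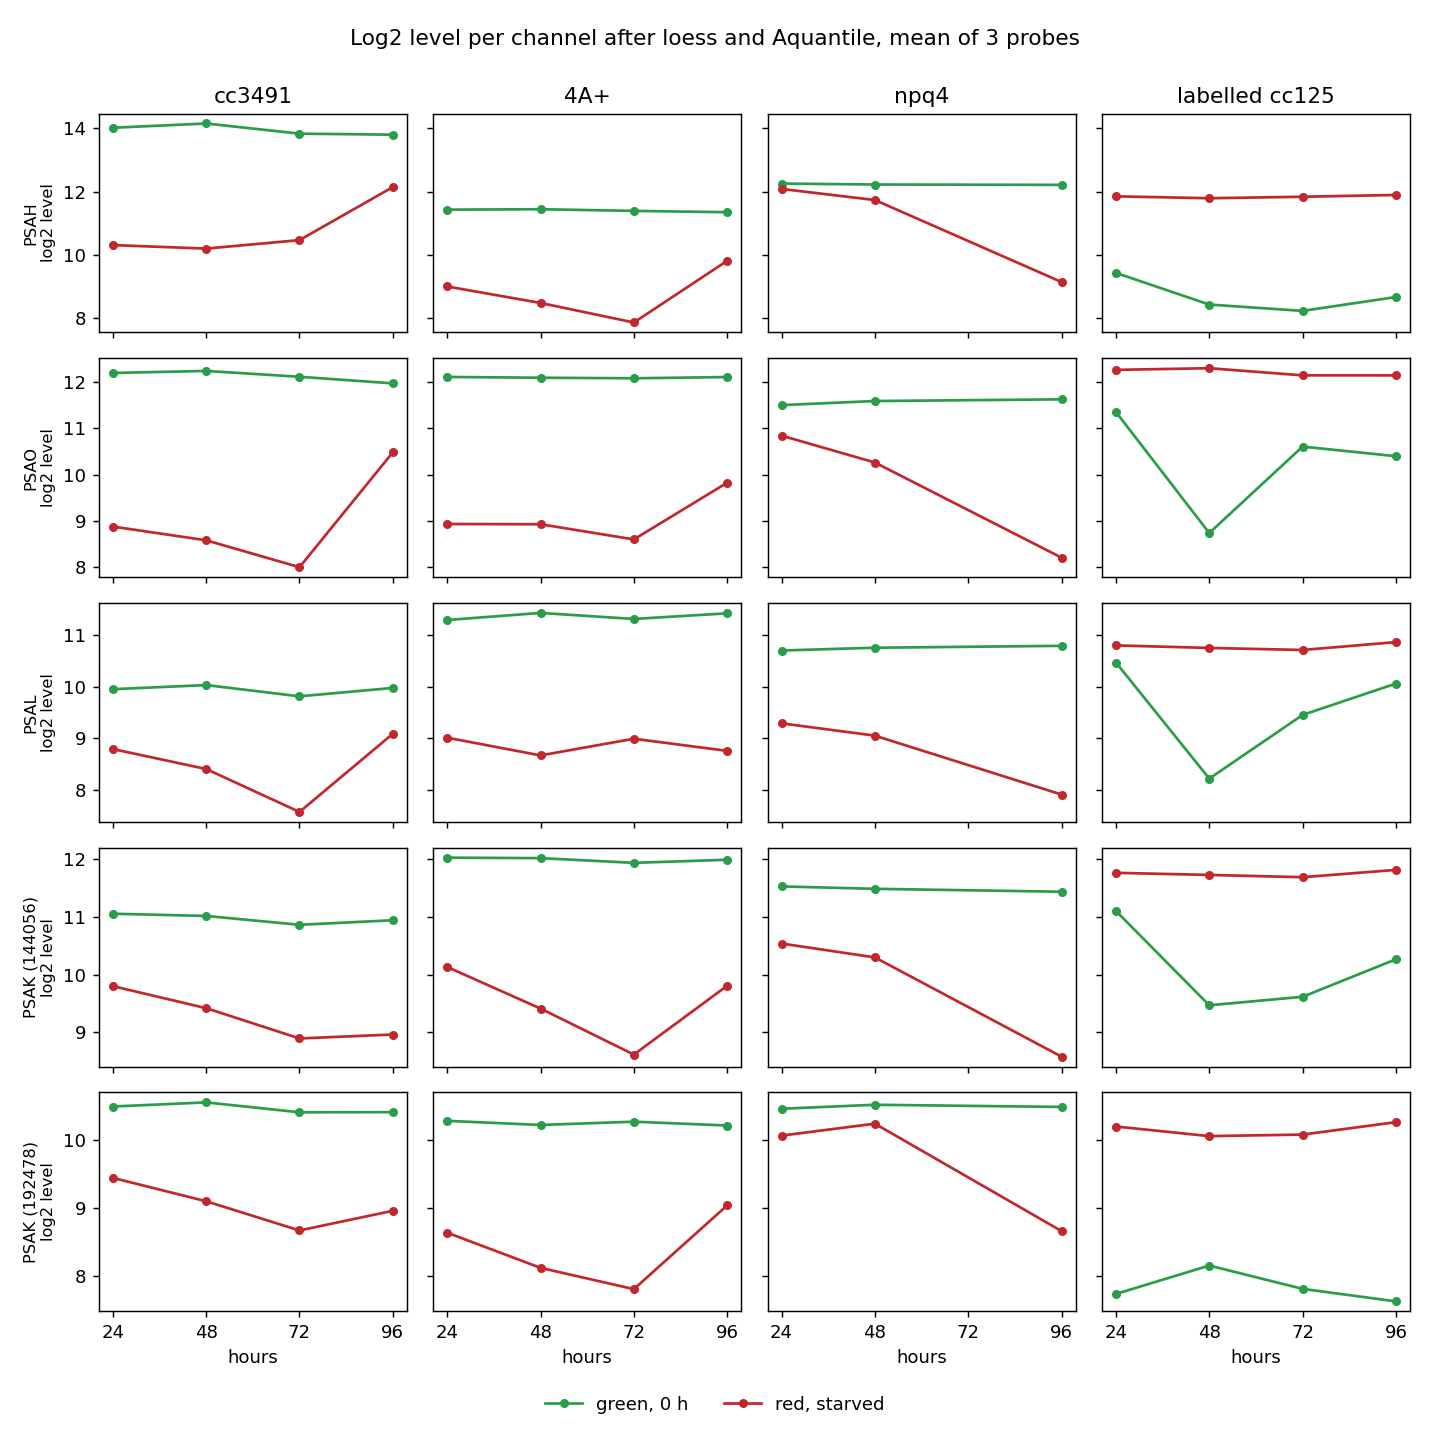
Log2 level in green (0 h by the labels) and red (starved by the labels) on each array, for the gene means of the 5 members in each strain. Green points of cc3491, 4A+ and npq4 form flat sets, such as 13.95 ± 0.17 for PSAH in cc3491, while for cc125 as labelled the red points do, at 11.85 ± 0.04 for PSAH.

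Whether the mutant responded differently was examined as the difference between strain means. None of the 5 genes and none of the 15 probes was called for npq4 minus 4A+, where 0.965% of all models and 0.773% of all probes were called in either direction. All 5 differences of means were positive, a smaller mean decrease in npq4 than in 4A+, but the order depended on the time point. At 96 h the ratio was lower in npq4 than in 4A+ for all 5 genes, and npq4 has no array of 72 h. The difference was 1.37 on the log2 scale for PSAH (95% CI -0.19 to 2.93), 1.22 for PSAO (-0.44 to 2.88), 0.51 for PSAL (-0.55 to 1.57), 0.82 for PSAK model 144056 (-0.23 to 1.88) and 1.01 for PSAK model 192478 (0.21 to 1.81). For the last, p was 0.0174 before and 0.124 after Benjamini-Hochberg adjustment in limma. It was the only 1 of 5 under 0.05 before adjustment, as were 20.8% of all models, and Holm adjusted p was 1 for every gene. For each of the 5 genes the arrays of npq4 and 4A+ overlapped. The size of the PSAH difference depended on the processing. Its npq4 and 4A+ means were -1.34 and -3.46 without a normexp offset, and -1.30 and -3.78 with the scanner's ratio. With normexp fitted on all spots they were -1.23 and -2.54. The gene differences were also fitted, by a choice made after the data had been seen, with only probes above background in both channels on all 15 arrays. Over the 2 such probes of PSAO the difference was 2.10 (95% CI -0.04 to 4.24), and over the 2 such probes of PSAK model 192478 it was 1.52 (0.35 to 2.69), with Benjamini-Hochberg adjusted p of 0.175 and 0.0679 in limma.

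In npq4 minus cc3491, too, no gene and no probe was called, against 0.282% of all models and 0.374% of all probes. The difference for PSAH was 1.93 (95% CI 0.37 to 3.48), with an unadjusted p of 0.0193 in limma, and an adjusted p of 0.120 by Benjamini-Hochberg. It was the only 1 of 5 with an unadjusted p under 0.05, against 23.7% of all models. For PSAO it was 1.34 (-0.32 to 3.00), for PSAK model 192478 0.59 (-0.21 to 1.39) and for PSAK model 144056 0.02 (-1.04 to 1.08). PSAL ran the other way, at -0.52 (-1.58 to 0.54). The intervals of all 5 genes include differences of more than 2-fold. Both comparisons share the npq4 arrays.

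Between 4A+ and cc3491 no gene and no probe was called, against 1.5% of all models and 1.45% of all probes. PSAL had the only difference with an unadjusted p under 0.05, at -1.03 (95% CI -2.01 to -0.05) and a p of 0.0404, or 0.134 after Benjamini-Hochberg adjustment in limma. Of all models, 32.4% were under 0.05 before adjustment. Its arrays did not overlap between the 2 strains, as was so for 26.2% of all models. For the other genes the difference was 0.56 for PSAH (-0.88 to 2.0), 0.12 for PSAO (-1.42 to 1.66, including the probe at background in 4A+), -0.80 for PSAK model 144056 (-1.78 to 0.18) and -0.42 for PSAK model 192478 (-1.16 to 0.32). By Benjamini-Hochberg adjustment in limma, probe 3 of PSAO alone passed, with a difference of 1.24 and an adjusted p of 0.00259, beside 4.17% of all probes that were called higher by this rule. This is the probe that was not above background in red on any array of 4A+, so the size of that difference rests on a bound. Over the 2 PSAO probes above background in both channels on all 15 arrays, the gene difference had the opposite sign, at -0.44 (-2.42 to 1.54).

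**Figure D4:**
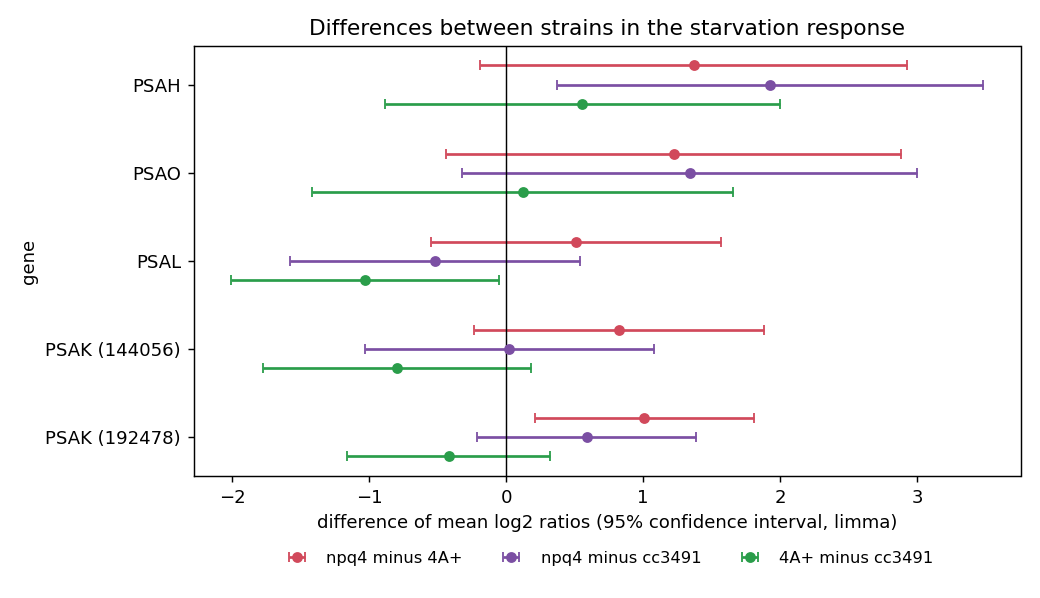
Difference of the mean log2 ratio between strains (x axis) for each gene, with bars of the 95% confidence interval from limma, for npq4 against 4A+, npq4 against cc3491 and 4A+ against cc3491, each as the first minus the second. No difference passed the Holm criterion, and the widest intervals are those of PSAH and PSAO, such as -0.19 to 2.93 for PSAH in npq4 minus 4A+.

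Over time, the slope with strain as a fixed effect was estimated on the 11 arrays of cc3491, 4A+ and npq4. It was -0.02 log2 units per 24 h for PSAH and -0.05 for PSAO, while PSAL and PSAK model 192478 both had -0.18 and PSAK model 144056 had -0.35 (95% CI -0.62 to -0.08). For this model p was 0.0176 before and 0.517 after Benjamini-Hochberg adjustment in limma, and 8.43% of all models were under 0.05 before adjustment. No member was called, and over the whole array 0% of probes and 0.00743% of models were called.

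The common slopes near 0 of PSAH and PSAO were averages over strains whose changes from 24 to 96 h had opposite signs. From 24 to 96 h the log2 ratio of PSAH changed by 2.05 in cc3491 and 0.89 in 4A+ but by -2.90 in npq4. For PSAO the same change was 1.83 in cc3491, 0.89 in 4A+ and -2.76 in npq4. In cc3491 and 4A+ the highest value of these genes was at 96 h, on 1 array per strain. At 72 h PSAO was below its 24 h value in both wild types, as was PSAH in 4A+ but not in cc3491. In npq4 all 5 genes were lowest at 96 h. A difference between strain-specific slopes was fitted after these courses had been seen. For npq4 minus 4A+ it was -1.22 per 24 h for PSAH (95% CI -2.25 to -0.19) and -1.17 for PSAO (-2.22 to -0.13), with Benjamini-Hochberg adjusted p of 0.949 and 0.961 in limma. For npq4 minus cc3491 it was -1.69 for PSAH and -1.44 for PSAO, with adjusted p of 0.125 and 0.178 in limma. By Holm adjustment 0 of 13465 models were called in either comparison, and by Benjamini-Hochberg adjustment 0% and 0.995% were.

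These slope differences depended on single arrays. Without the 96 h array of npq4, which also had the fewest probes above background in green, npq4 minus 4A+ was -0.53 for PSAH and -0.90 for PSAO. Without the 96 h array of 4A+ it was -0.46 and -0.79. Without the 96 h array of cc3491, npq4 minus cc3491 was -1.18 for PSAH and -0.54 for PSAO. The 96 h array of cc3491 also had the fewest probes above background of its strain, with 23605 in green and 20957 in red. The 24 h array of npq4 was the one with 1088 outlier marks. The part of array quality in the values of these arrays, and in the npq4 values at 96 h, was not tested.

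The members differed in how alike their courses were. Over the 15 arrays the root mean square difference of the log2 ratios was smallest between PSAL and PSAK model 144056, at 0.55, and largest between PSAH and PSAL, at 1.55. PSAH and PSAO differed by 0.89, and the 2 PSAK models by 0.79. These are descriptions over arrays that share their 0 h RNA within a strain.

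Among 11034 other models with at least 2 tested probes, those closest to PSAH were LHCB5 (model 184397), a minor antenna protein of photosystem II, at 0.66, and LHCA1 (model 184471), a photosystem I antenna protein, at 0.83, with PSAO next. LHCB5 is also listed as LHCBM3 in one of the lists. Closest to PSAO were LHCA7 (model 183363) at 0.51 and LHCA1 at 0.52, with PSAH next at 0.89. PSAL was closest to the unnamed model 136294 (locus CHLRE_07g344950v5) at 0.49 and to a model listed as CYN38 at 0.55. The same 2 models and PSAL were the closest to PSAK model 144056. For PSAK model 192478 they were a model listed as TEF25 at 0.47, the unnamed model 58944 (locus CHLRE_16g650550v5) at 0.58 and CSP41a (model 205573), a plastid RNA-binding protein, at 0.61.

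Genes that work with photosystem I were taken from lists fixed by symbol. None of the 8 other photosystem I subunits looked for, PSAC to PSAN, and none of the 4 genes of state transitions and cyclic flow had a named model. Of the photosystem I antenna proteins LHCA1 to LHCA9, 7 models were named and tested. In cc3491 4 of the 7 were called lower, in 4A+ 1 and in npq4 2, and for cc125 as labelled 2 were called higher. The shares of all models so called were 1.89%, 2.24%, 1.23% and 2.17% in that order. Means below 0, called or not, numbered 7 in cc3491, 6 in 4A+ and 6 in npq4. The median log2 ratio of the 7 models was -2.37, -1.71, -1.94 and 2.0 in cc3491, 4A+, npq4 and cc125 as labelled. The medians of all models were between -0.01 and 0.01.

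LHCA8 (model 187025) fell in cc3491 and 4A+, with mean log2 ratios of -2.66 ± 0.87 and -2.20 ± 0.44 (SD, n = 4 each) and Holm adjusted p of 0.00154 and 0.0128 in limma. LHCA5 (model 186299), which is LHCA6 in one list, fell in cc3491 and npq4, with -2.37 ± 0.59 (SD, n = 4) and -1.94 ± 0.74 (SD, n = 3) and Holm adjusted p of 0.00101 and 0.0459 in limma. LHCA4 (model 153678) fell in the same strains by smaller amounts, 1.5 and 1.06 on the log2 scale, but its name comes only from the list with displaced numbers. LHCA1 (model 184471) fell in cc3491, at -2.76 ± 0.96 (SD, n = 4) and a Holm adjusted p of 0.0421 in limma. LHCA7 (model 183363) had means of -3.06, -3.13 and -2.58 in cc3491, 4A+ and npq4 without a call. A second model listed as LHCA1 (206001) had -0.05, 0.38 and 0.71, and it and a second model listed as LHCA7 (192961) are likewise named only in that list. The study picked several of these antenna genes from these arrays, so the counts are not independent evidence of direction.

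**Figure D5:**
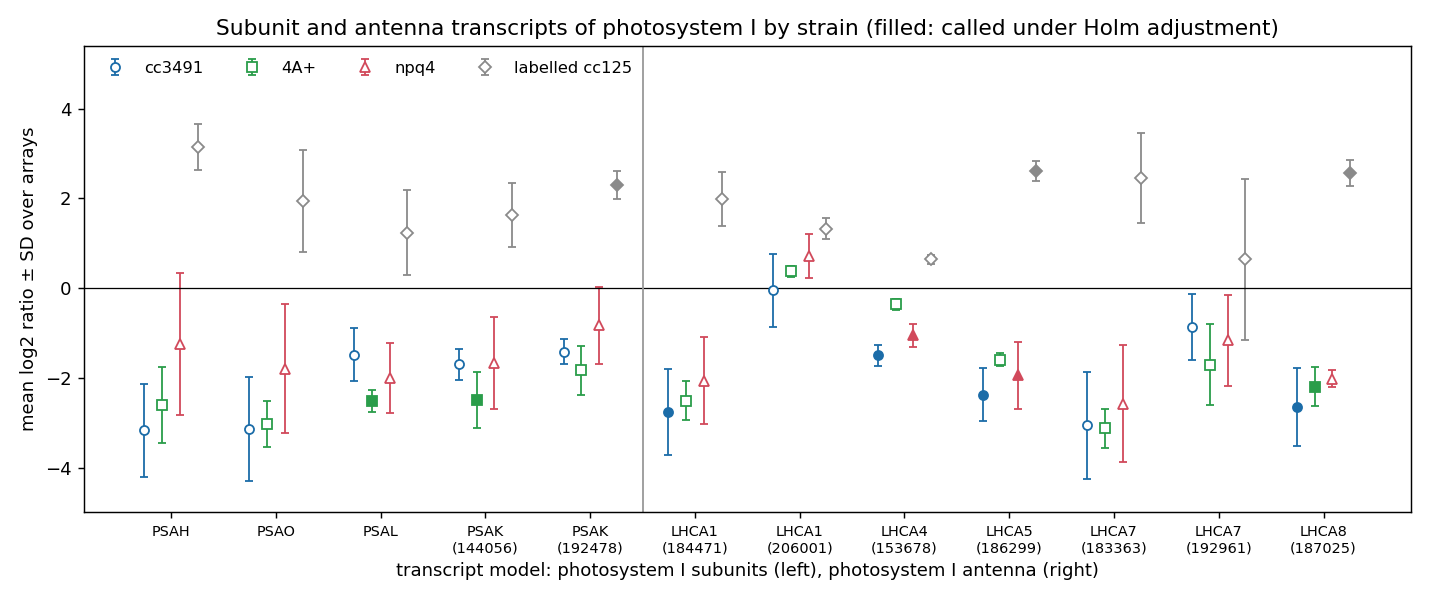
Mean log2 ratio of starved over 0 h RNA for the 7 LHCA models and the 5 photosystem I subunit models by strain, with bars of 1 SD over 4 arrays (3 for npq4) and filled points where the Holm criterion and the 2-fold limit were met. LHCA8 is called lower in cc3491 at -2.66 and in 4A+ at -2.20, and the model 206001 listed as LHCA1 lies near 0 in cc3491.

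On the electron carrier list, 4 of 10 symbols had a tested model. FNR1 (model 195553), the ferredoxin-NADP+ reductase that takes up electrons from photosystem I through ferredoxin, fell in cc3491, at -2.70 ± 0.80 (SD, n = 4) and a Holm adjusted p of 0.0290 in limma. Its means in 4A+ and npq4 were -1.35 and -2.65, without a call. The ferredoxin FDX2 (model 159161) rose in cc3491, at 1.66 ± 0.32 (SD, n = 4) and a Holm adjusted p of 0.00103 in limma, and had 0.33 in 4A+ and 0.57 in npq4. The alternative donors of electrons to photosystem I were not called in any strain. CYC6 (model 193170), cytochrome c6, had a cc3491 mean log2 ratio of 3.20 ± 0.19 (SD, n = 4), a 4A+ mean of 3.20 ± 0.91 (SD, n = 4) and an npq4 mean of 1.11 ± 1.93 (SD, n = 3), with a Holm adjusted p of 1 each in limma. PCY1 (model 150538), plastocyanin, had 1.22, -0.54 and 1.23, and its name, like that of RAA2, comes only from the list with displaced numbers. For cc125 as labelled, CYC6 had -2.49 ± 2.31 (SD, n = 4). The error in limma pools all arrays, so the adjusted p of CYC6 in cc3491 does not rest on its small SD there alone. Not called either was RAA2 (model 196333), which takes part in trans-splicing of the psaA transcript and was the only 1 of 12 biogenesis genes with a named model. The 4 genes used as markers of sulfur starvation, ARS1, ARS2, ECP76 and ECP88, had 4 calls in cc3491, 3 in 4A+ and 3 in npq4, all higher, whereas for cc125 as labelled 2 of the 4 were called lower and none higher. In either direction, 455, 441 and 261 of 13465 models were called in cc3491, 4A+ and npq4, and 369 for cc125 as labelled. The study had listed the 4 markers, FNR1, FDX2 and CYC6 for their change on these arrays, so their responses are not independent evidence.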

How the data were processed

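The authors deposited the scanner output of each array, per the file headers from Agilent Feature Extraction 10.7.3.1, which gives median pixel intensities for every spot and its surroundings in both channels, before background correction and dye normalization. The deposited log10 ratio of red over green had been background subtracted and dye normalized by that software, and the deposited marks of 0 or 1 record spots above background, saturated spots and outliers. The deposited value table of the series was identical to these log10 ratios (largest difference 0). The array held 3 probes per JGI Chlre3.1 transcript model, some newly designed and some taken over from a first-generation array. The study did not include the latter in its analysis, whereas they were kept here.

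limma 3.58.1 (R 4.3.3) was used on the intensities. Background correction was by normexp (offset 50), with parameters estimated from spots that had no outlier mark and a net signal over -100, a choice made with earlier results known. Ratios were loess normalized within arrays, and levels by channel also by Aquantile. Controls and spots with an outlier mark did not enter, while saturated spots did, and the 45218 spots of an array gave 43687 probes of models, whose number limits the precision. A model's value is the mean of its tested probes.

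A linear model with a coefficient per strain on all 15 arrays gave strain means, tested against 0, and their differences. The slope over time used strain as a fixed effect. A call required a Holm adjusted p under 0.05 over all tested probes or models and, except for slopes, at least a 2-fold change, as in the study's methods. The scripts were tested on simulated data with 200 changed probes. Named beside the members were LHCSR3, lists of photosynthesis and sulfur genes fixed by symbol, and for each member the 3 models with at least 2 tested probes and the smallest root mean square difference. Members and lists were chosen with earlier results of these data known. The study's tables gave symbols for 487 models, and RefSeq loci of assembly version 5.5 matched 12302 of 14557 models. Alternatives were normexp without an offset or fitted on all spots, the scanner's ratio, median centring, other filters on dim probes, Benjamini-Hochberg adjustment, a strain's own arrays alone, single probes, time point as a block, and each array left out.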

Additional observations from a re-analysis of the deposited data

Results flagged for a closer look

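Each of the 5 genes was lower on all 11 arrays of cc3491, 4A+ and npq4 and higher on all 4 arrays labelled cc125. On the npq4 array of 24 h this held for PSAH only through its probe from the first-generation array. The mean log2 ratio as labelled cc125 was 3.15 for PSAH, 1.94 for PSAO, 1.23 for the model listed as PSAL, 1.63 for PSAK model 144056 and 2.31 for PSAK model 192478. The difference between cc125 and the other strains was not tested, and the direction of these arrays is unsettled. No array stood apart by Dixon's limit in the 15 sets of 4 arrays, 1 for each gene in cc3491, 4A+ and cc125.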

How the results depend on the processing

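The direction of the gene means did not change under the alternatives, since all 190 values for cc3491, 4A+ and npq4 were negative. For part of these values the sign was fixed in advance. Every array was already below 0, so leaving 1 out could not turn a mean. Without the filter on dim probes the member values were the same, and the single-probe means are those given above. The number of called probes of 15 did change with the processing. Against 2 in cc3491, 1 in 4A+ and 1 in npq4, normexp without an offset gave 1, 8 and 0, normexp fitted on all spots 1, 0 and 0, the scanner's ratio 1, 10 and 0, and median centring 1, 8 and 0. Calls over all 32076 tested probes moved as well, from 1061, 910 and 494 to 868, 1778 and 654, to 896, 742 and 113, to 865, 2318 and 754, and to 784, 1211 and 323 in that order. The scanner's ratio also moved the median of all tested probes in 4A+ to -0.21. Only probes above background in both channels on all 15 arrays gave, of 13 member probes, 3, 6 and 1, and 6 for cc125 as labelled, beside 439, 1014, 365 and 698 of 7566 in all. Benjamini-Hochberg adjustment gave 14, 13 and 7, with 11 instead of 4 for cc125 as labelled and 1 instead of 0 for 4A+ minus cc3491. A fit to a strain's own arrays alone called 0 in all 4 strains. With the sign turned, the 4 calls labelled cc125 were lower. Leaving out 1 array gave 1 to 2 calls in cc3491, 0 to 1 in 4A+, 0 to 1 in npq4, 1 to 3 for cc125 and 0 to 0 for the differences and the slope. The causes were not tested. Time points shared between strains did not pair the arrays, with correlations of deviations from -0.17 to 0.24. With time point as a replicate block, 0 members were called in each of the 3 differences between strains.

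Of the gene means under alternatives, 214 kept their side of the threshold, 21 lost a call and 20 gained one. The calls of PSAL and PSAK model 144056 in 4A+ were lost with normexp fitted on all spots, at Holm adjusted p of 0.156 and 0.0936 in limma, and with no filter on dim probes, at 0.0537 and 0.0569. PSAH, PSAO and PSAK model 192478 gained calls in 4A+ with the scanner's ratio, at -3.78, -4.42 and -2.33, and without a normexp offset, at -3.46, -3.84 and -2.27. With median centring PSAO and PSAK model 192478 gained calls there, at -4.20 and -2.70. With only probes above background in both channels on all 15 arrays, calls were gained by both, at -4.19 and -2.72, and by PSAH in cc3491 and for cc125 as labelled. Dim signals limit probe 3 of PSAO and probe 1 of PSAK model 192478.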

Other observations

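Other parts of the photosynthetic chain were measured beside photosystem I. PETO (model 185971), a subunit associated with the cytochrome b6f complex, fell in cc3491, at -2.01 ± 0.59 (SD, n = 4) with a Holm adjusted p of 0.00115 in limma, and in npq4, at -1.76 ± 0.53 (SD, n = 3) with 0.0256. Its mean in 4A+ was -1.21, without a call. Of the 3 models listed for the chloroplast ATP synthase, 2 were called lower in cc3491, 0 in 4A+ and 1 in npq4. The shares of all models called lower were 1.89%, 2.24% and 1.23% in that order. All 3 means were below 0 in each of these strains. Models 132678, called lower in cc3491, and 148810 have their names only from the list with displaced numbers. Model 134235, named ATPC and in one list ATPD, had -2.14 ± 0.31 (SD, n = 4) in cc3491 and -2.21 ± 0.46 (SD, n = 3) in npq4, both called, beside -0.20 ± 0.47 (SD, n = 4) in 4A+. The study had listed PETO and model 134235 for their change on these arrays, so these changes are not independent evidence.

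Of the 7 photosystem II antenna models, LHCBM9 (model 184479) rose in cc3491, 4A+ and npq4, with mean log2 ratios of 5.12, 6.17 and 5.05, whereas LHCBM4 (model 191690) fell in cc3491, at -2.59 ± 0.34 (SD, n = 4) with a Holm adjusted p of 0.00179 in limma. LHCB5 (model 184397), the model closest to PSAH, had -3.06 in cc3491, -2.02 in 4A+ and -1.41 in npq4, without a call. LHCBM9, LHCBM4 and LHCB5 had also been listed by the study for their change on these arrays. Neither of the 2 models listed as PSBX was called in any strain.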
